A study of Mus musculus with 7 samples.

Results

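The 10 genes described here are the IL-1 family ligands Il1a, Il1b, Il18 and Il33, the receptor antagonist Il1rn, the receptor chains Il1r1, Il1r2, Il1rap and Il1rl1, and the protease gene Casp1, chosen by name from the 55423 features of the count table. They were compared between bulk tumours of Ivl:BRAFV600E mice and of Ivl:BRAFV600E-SOX2LSL mice, 3 of each. All mice carried Ivl-CreERT2, a tamoxifen-inducible Cre driven by the involucrin promoter and so active in differentiation-committed basal and suprabasal keratinocytes, and the Cre-activated BRAFV600E oncogene. Recombination was induced by tamoxifen on the back skin, at 7 to 10 weeks of age per the labels. Ivl:BRAFV600E-SOX2LSL mice also carried a Rosa26 transgene from which SOX2 and, through an IRES, eGFP are made once Cre removes a stop cassette. The Ivl:BRAFV600E tumours are called A (female), B (female) and C (male), and the Ivl:BRAFV600E-SOX2LSL tumours D (male), E (male) and F (female). The mice of tumours A and B carried in addition a Rosa26 tdRFP reporter. According to the mouse list of the study, every Ivl:BRAFV600E-SOX2LSL tumour was collected earlier after induction than every Ivl:BRAFV600E tumour, so time and genotype cannot be told apart. Each library came from a separate mouse.

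IL-1 alpha and IL-1 beta bind IL1R1, which signals only after it recruits the accessory chain IL1RAP, and the signal passes through MYD88, IRAK kinases and TRAF6 to NF-kB. IL1RN occupies IL1R1 without signalling and IL1R2 is a decoy receptor. IL-33 uses ST2, encoded by Il1rl1, with the same accessory chain, whereas IL-18 has its own receptor pair. Caspase-1, activated in inflammasomes, cleaves the precursors of IL-1 beta and IL-18, while the IL-1 alpha precursor is active without it. Keratinocytes store IL-1 alpha and IL-18, and mast cells and innate lymphoid cells are known for ST2. The data are RNA levels and hold no measure of cleavage or release.

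Between 23565432 and 31152826 counts were available per tumour, and a level of 3 counts corresponded to at most 0.142 CPM (counts per 1 M reads after TMM scaling). Sox2 was measured at 0.238 to 0.716 CPM in Ivl:BRAFV600E tumours and at 155 to 182 CPM in Ivl:BRAFV600E-SOX2LSL tumours, and EGFP counts were 0 in every Ivl:BRAFV600E tumour. Keratinocyte identity was present in all 6 tumours, with Krt5 between 2371 and 3900 CPM and Trp63 between 260.5 and 321 CPM. Skeletal muscle genes summed to 3.83 to 6.98 CPM in Ivl:BRAFV600E tumours and to 225 to 1071 CPM in Ivl:BRAFV600E-SOX2LSL tumours, and 4 of these 11 genes reached the filter only in the latter, which fixed their direction. Tumour D stood apart with the highest TMM factor (1.25) and the lowest keratinocyte sum. In bulk tissue, fewer cells of a type and less RNA per cell cannot be told apart.

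Of the 10 members, Il1a and Il1rap rose and Casp1 fell in Ivl:BRAFV600E-SOX2LSL tumours at an adjusted p under 0.05 (edgeR quasi-likelihood test with Benjamini-Hochberg adjustment over 24433 genes). Of all genes tested 3.90% passed, 2.39% higher and 1.51% lower. The 2 groups did not overlap for 6 members, 4 of them higher (Il1a, Il1r1, Il1rap and Il1rl1) and 2 lower (Il18 and Casp1), against 34.2% of all genes tested, 18.2% higher and 16.0% lower. At an unadjusted p under 0.05 the same 6 members passed, against 25.7% of all genes. All 10 members passed the filter on low counts, and the lowest count of any member was 13, for Il1rl1 in tumour B. With DESeq2 5 members passed, where 18.2% of the genes with an adjusted p did so, and with sex as a covariate Il1a alone remained.

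**Figure D1:**
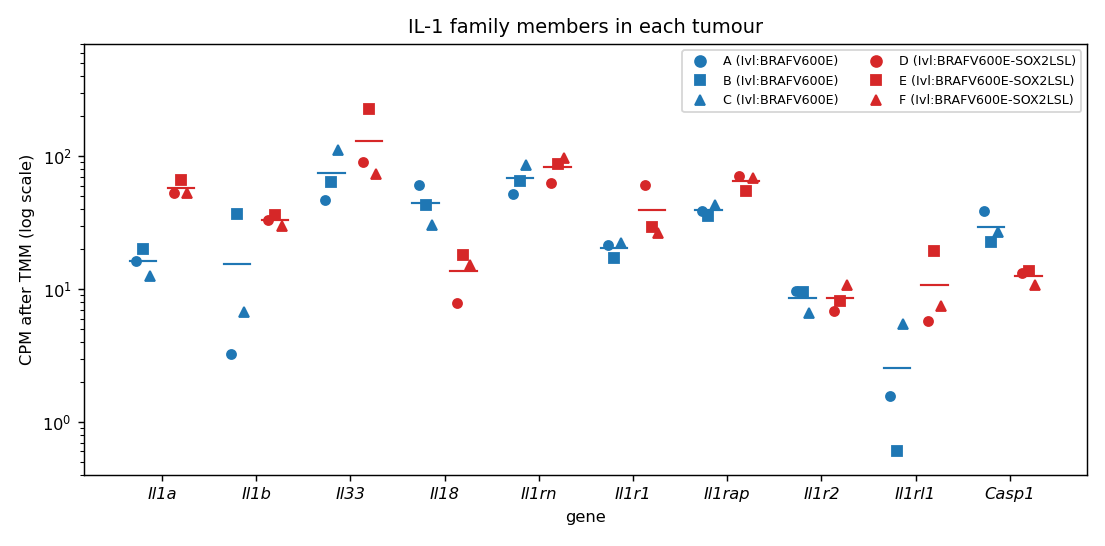
Level of each member in each tumour, in CPM after TMM on a log scale, with Ivl:BRAFV600E tumours in blue, Ivl:BRAFV600E-SOX2LSL tumours in red and horizontal lines at the group means. The groups are apart for Il1a, Il1rap, Il1r1 and Il1rl1 (higher in red) and for Il18 and Casp1 (lower in red), and tumour B lies with the red tumours for Il1b.

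Among the ligands, Il1a showed the largest change for its error. Il1a (ENSMUSG00000027399, chr2:129299610-129309972, minus strand, GRCm38) was measured at 16.3, 20.1 and 12.5 CPM in tumours A, B and C and at 53.3, 66.1 and 52.6 CPM in tumours D, E and F. Every Ivl:BRAFV600E-SOX2LSL tumour was well above tumour B, the highest of the Ivl:BRAFV600E tumours. The mean went from 16.3 ± 3.80 to 57.3 ± 7.64 CPM (SD, n = 3 each), a 3.52-fold rise (log2 fold change 1.81, SE 0.20, edgeR adjusted p = 0.0129). With each tumour left out in turn the log2 fold change stayed between 1.66 and 1.99, and the call was lost without tumour A (adjusted p = 0.0914). The exons of Il1a share 222 of 1974 bases with Gm14023 on the opposite strand, and whether strand was used in counting is not stated. Gm14023 itself held 13 to 57 counts per tumour, against 263 to 2042 for Il1a. The listed genes closest to Il1a over the 6 tumours were the skeletal muscle genes Tnnt3 (r = 0.96) and Acta1 (r = 0.95) and the adhesion gene Icam1 (r = 0.94). Tnnt3 reached the filter only in Ivl:BRAFV600E-SOX2LSL tumours, which fixed its direction. Acta1 was at 0.570 CPM or below in A, B and C and at 320.5, 340.2 and 55.0 CPM in D, E and F, and the part of muscle in the level of Il1a was not tested.

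Il1b, encoded next to Il1a on the same strand, did not separate the groups. It was measured at 3.24, 36.6 and 6.70 CPM in tumours A, B and C and at 33.2, 36.0 and 30.0 CPM in tumours D, E and F. Tumour B had the highest level of all 6, whereas A and C were far below every Ivl:BRAFV600E-SOX2LSL tumour. The log2 fold change was 1.10 with an SE of 0.78 (edgeR adjusted p = 0.408), and it was 2.74 without tumour B (adjusted p = 0.0562) and 0.61 without tumour A. The 3 Ivl:BRAFV600E-SOX2LSL tumours varied little, with an SD of 3.01 CPM against 18.3 CPM in Ivl:BRAFV600E tumours.

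The genes most like Il1b among 146 listed genes, by Pearson correlation of log2 CPM over the 6 tumours, were Cd14 (r = 0.99), the lipopolysaccharide co-receptor, Nlrp3 (r = 0.97), the inflammasome sensor, and Hdc (r = 0.97), the histamine-forming enzyme. The 6 points share their libraries and their split by genotype. Nlrp3 was measured at 0.512, 17.8 and 1.38 CPM in tumours A, B and C and at 6.94, 8.26 and 9.57 CPM in tumours D, E and F. Cd14 was at 4.54, 19.3 and 6.18 CPM in tumours A, B and C and at 18.2 to 22.4 CPM in the other group. Each of these genes was thus high in tumour B alone among the Ivl:BRAFV600E tumours. The neutrophil chemokine genes Cxcl2 and Cxcl3, 2 of the listed IL-1-responsive genes, had the same high tumour, with 1.33, 54.0 and 2.33 CPM for Cxcl2 and 0.648, 7.67 and 0.950 CPM for Cxcl3 in A, B and C. In tumours D, E and F, Cxcl2 was at 9.32, 11.7 and 19.6 CPM and Cxcl3 at 4.25, 2.79 and 4.44 CPM. The other neutrophil chemokine genes of that list differed, with Cxcl1 at 15.1, 5.54 and 3.71 CPM and Cxcl5 at 1.40, 0.277 and 7.17 CPM in A, B and C. The 12 neutrophil markers summed to 341, 445 and 1225 CPM in A, B and C, most of it from S100a8 and S100a9, which keratinocytes also make. Without this pair, a choice made after the values were seen, the sum was 23.7, 49.8 and 38.3 CPM. It was highest in tumour B, and Mmp9, at 8.53, 28.3 and 13.4 CPM, carried that order. Cxcr2 was lowest in B (11.8, 8.36 and 12.7 CPM), and Csf3r was nearly equal in B and C (3.10, 10.0 and 10.1 CPM). Retnlg, Mmp8, Ngp and Stfa2l1 were highest in B of these tumours, but at 1.25 CPM or below. The summed macrophage markers were 107 CPM in tumour B, against 87.0 and 191 CPM in A and C. The part of these cells in the level of Il1b was not tested.

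**Figure D2:**
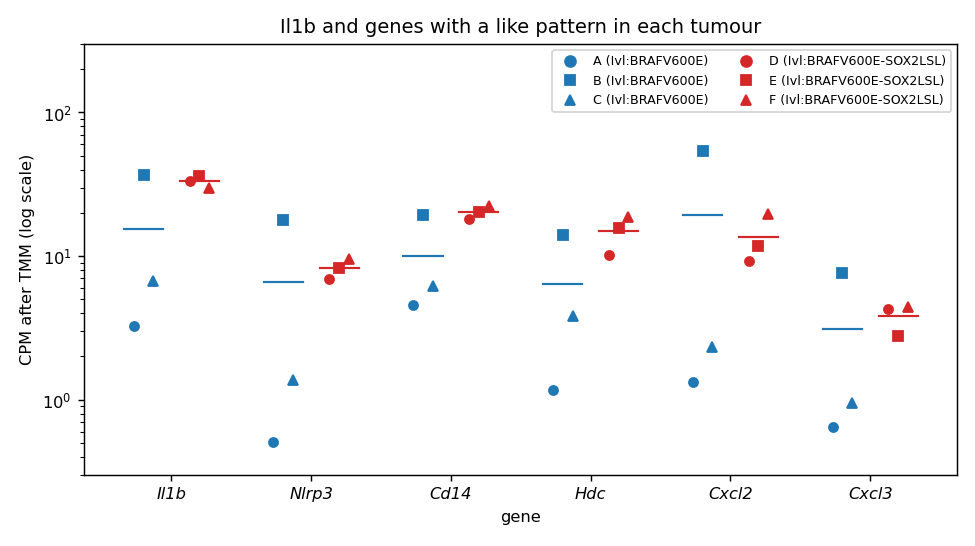
Level of Il1b and of 5 genes with a like pattern in each tumour, in CPM after TMM on a log scale, with Ivl:BRAFV600E tumours in blue, Ivl:BRAFV600E-SOX2LSL tumours in red and lines at the group means. Tumour B (blue square) lies far above A and C for all 6 genes and highest of all tumours for Il1b, Nlrp3, Cxcl2 and Cxcl3.

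Il18 had lower values in every Ivl:BRAFV600E-SOX2LSL tumour. Il18 (ENSMUSG00000039217, chr9:50554827-50581840, plus strand) was measured at 61.1, 42.8 and 30.1 CPM in tumours A, B and C and at 7.81, 18.0 and 15.3 CPM in tumours D, E and F. The groups did not overlap, and tumour D was lowest. The mean was 44.7 ± 15.6 CPM against 13.7 ± 5.29 CPM (SD, n = 3 each), with a log2 fold change of -1.71 and an SE of 0.37, and the edgeR adjusted p of 0.0521 missed the threshold. Il18 passed in 5 of 13 alternatives, among them DESeq2 and the fit without tumour D (log2 fold change -1.42, adjusted p = 0.0349). Its nearest genes by correlation over the 6 tumours were Map3k7 (r = 0.99), Traf6 (r = 0.98) and Rora (r = 0.96).

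Il33, a nuclear alarmin of barrier cells, had the largest SD in CPM of the members. It was measured at 46.8, 64.1 and 112 CPM in tumours A, B and C and at 91.1, 225 and 73.7 CPM in tumours D, E and F. The groups overlapped and tumour E alone was far above the rest. The log2 fold change was 0.81 with an SE of 0.48 (edgeR adjusted p = 0.33), and it was 0.15 without tumour E and 1.23 without tumour C. Its closest listed genes were S100a8 (r = 0.78), Trp63 (r = 0.76) and Rel (r = 0.74).

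The receptor antagonist Il1rn was among the more abundant members in both groups. It was measured at 52.4, 65.3 and 86.4 CPM in tumours A, B and C and at 62.8, 87.8 and 96.9 CPM in tumours D, E and F. The groups overlapped, and the log2 fold change was 0.28 with an SE of 0.23 (edgeR adjusted p = 0.48), with a range of 0.12 (without A) to 0.49 (without C) when 1 tumour was left out. Zc3h12a (r = 0.99), S100a9 (r = 0.95) and Rel (r = 0.95) were closest to it.

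Il1rap, the accessory chain shared by the IL-1, IL-33 and IL-36 receptors, rose modestly. Il1rap (ENSMUSG00000022514, chr16:26581704-26730117, plus strand) was measured at 39.0, 35.6 and 43.0 CPM in tumours A, B and C and at 71.5, 54.4 and 68.9 CPM in tumours D, E and F. The groups did not overlap, and the mean went from 39.2 ± 3.70 to 65.0 ± 9.19 CPM (SD, n = 3 each). This was a 1.66-fold rise (log2 fold change 0.73, SE 0.15, edgeR adjusted p = 0.0462). The call was lost when A, B, C, E or F was left out, with a log2 fold change of 0.65 to 0.84 over all 6 such fits, and it held in 5 of 13 alternatives, not with upper-quartile scaling (log2 fold change 0.63, adjusted p = 0.0591). Antisense Gm20319 shares 552 of 11360 exon bases with Il1rap and held at most 3 counts in any tumour. The genes closest to Il1rap were Cd74 (r = 0.97) and H2-Ab1 (r = 0.97), of antigen presentation, and Ltf (r = 0.96).

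Il1r1, the signalling receptor, was higher in every Ivl:BRAFV600E-SOX2LSL tumour without passing the test. It was measured at 21.6, 17.3 and 22.1 CPM in tumours A, B and C and at 61.1, 29.6 and 26.5 CPM in tumours D, E and F. Tumour D was above all others by a wide margin, and E and F lay just above the Ivl:BRAFV600E range. The log2 fold change was 0.94 with an SE of 0.33 (edgeR adjusted p = 0.132), and it was 0.46 without tumour D. The genes most like Il1r1 were Lpl (r = 0.99), Cd68 (r = 0.96) and C1qa (r = 0.95). Tumour D was also highest for the summed macrophage markers (784 CPM, against 87.0 to 367 CPM in the others). The same held for the adipocyte (110 against 20.8 to 49.0 CPM), fibroblast (8293 against 761 to 5090 CPM) and dendritic and Langerhans markers (317 against 79.6 to 263 CPM). Of the adipocyte list, Adipoq and Lep reached the filter only in Ivl:BRAFV600E-SOX2LSL tumours. The part of these cells in the level of Il1r1 was not tested.

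Il1r2, the decoy receptor, had nearly the same mean in both groups. It was measured at 9.72, 9.52 and 6.60 CPM in tumours A, B and C and at 6.85, 8.13 and 10.8 CPM in tumours D, E and F. The ranges overlapped almost wholly. The log2 fold change was -0.00 with an SE of 0.25 (edgeR adjusted p = 0.993), and its sign turned under some alternatives. Its closest listed genes were Nfkbia (r = 0.84), Emcn (r = 0.76) and Ptges (r = 0.59).

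Il1rl1, which encodes ST2, had the lowest level of the members per kilobase of exon and the largest SE. It was measured at 1.57, 0.60 and 5.46 CPM in tumours A, B and C and at 5.71, 19.3 and 7.40 CPM in tumours D, E and F. The groups did not overlap, but tumour C lay just below tumour D, and tumour E was highest as it was for Il33. The log2 fold change was 2.09 with an SE of 0.81 (edgeR adjusted p = 0.163, DESeq2 adjusted p = 0.0357). Without 1 tumour the log2 fold change of Il1rl1 ranged from 1.37 (without E) to 3.29 (without C), and it passed in no such fit. The mast cell protease genes Cpa3, Mcpt4, Tpsb2 and Cma1 were at 0.0462 CPM or below in tumour B, where Il1rl1 was lowest, and Cpa3 was at 1.02 and 0.380 CPM in A and C and at 4.84, 4.44 and 4.04 CPM in D, E and F. Hdc and Kit of the same list were not lowest in tumour B, with Hdc at 1.16, 14.1 and 3.80 CPM and Kit at 5.12, 6.47 and 10.1 CPM in A, B and C. The 10 mast cell and basophil markers summed to 12.1, 20.7 and 18.6 CPM in A, B and C, highest in B, and to 48.3 to 53.6 CPM in Ivl:BRAFV600E-SOX2LSL tumours. Fcer1a and Mrgprb2 reached the filter only in Ivl:BRAFV600E-SOX2LSL tumours, which fixed their direction, and of the other 8 all had a log2 fold change above 0 and none passed the edgeR test. Of 13 T, NK and innate lymphoid markers, Nkg7 and Klrb1c likewise reached the filter only in that group. Of the other 11, 10 had a log2 fold change above 0 and Rora fell. Without Rora (a choice made after the values were seen) the markers summed to 22.3 to 42.4 CPM against 51.9 to 92.3 CPM. Most of that sum came from Gata3, at 35.3, 17.6 and 27.4 CPM in A, B and C and 50.7, 40.4 and 68.2 CPM in D, E and F. The T cell genes Cd3e, Cd3d and Cd3g overlapped between the groups. The listed genes closest to Il1rl1 were none of these but Pmel (r = 0.95), Steap4 (r = 0.93) and Dpt (r = 0.93). The part of mast and lymphoid cells in the level of Il1rl1 was not tested.

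Casp1 fell. Casp1 (ENSMUSG00000025888, chr9:5298517-5307265, plus strand) was measured at 39.0, 22.4 and 26.9 CPM in tumours A, B and C and at 13.1, 13.6 and 10.7 CPM in tumours D, E and F. The groups did not overlap and the Ivl:BRAFV600E-SOX2LSL tumours lay close together. The mean was 29.5 ± 8.57 CPM against 12.5 ± 1.55 CPM (SD, n = 3 each), a level 2.36-fold lower (log2 fold change -1.24, SE 0.23, edgeR adjusted p = 0.0377). The call was lost when A, B, C, E or F was left out, with a log2 fold change of -1.40 to -0.99 over all 6 such fits, and it held in 7 of 13 alternatives. Tab3 (r = 0.93), Kdr (r = 0.93) and Map3k7 (r = 0.89) were closest to Casp1. The related protease gene Casp4, which drives the non-canonical inflammasome, had its higher values in the other group, with 2.15, 2.03 and 2.99 CPM in A, B and C and 4.45, 3.95 and 3.54 CPM in D, E and F (log2 fold change 0.74, SE 0.26, edgeR adjusted p = 0.137).

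The 15 keratinocyte markers summed to 128000 to 190040 CPM in Ivl:BRAFV600E tumours and to 26026 to 82119 CPM in Ivl:BRAFV600E-SOX2LSL tumours, 10 with a log2 fold change below 0 and none called by edgeR. The suprabasal keratin Krt10 was at 28863 to 36342 CPM in A, B and C and at 424.5 to 7214 CPM in D, E and F (log2 fold change -3.06, adjusted p = 0.0935). The basal genes Krt5 and Trp63 overlapped between groups, with log2 fold changes of 0.29 and 0.10. Krt15 (log2 fold change 1.63) and Dsg3 (0.69) were higher in every Ivl:BRAFV600E-SOX2LSL tumour without passing the test, so the list did not move as one. The summed macrophage and monocyte markers were 87.0 to 191 CPM against 230 to 784 CPM, with Csf1r the 1 of 14 called. The summed neutrophil markers were 341 to 1225 CPM against 1748 to 2158 CPM with 1 of 12 called (Ltf), and Elane and Camp were below the filter. Of all genes tested 3.90% were called. Ly6c2 of the first list and Ly6g and Mpo of the second reached the filter only in Ivl:BRAFV600E-SOX2LSL tumours, which favoured that direction. Each of these 3 genes was at 1.23 CPM or below. Ltf was at 1.62 CPM or below in A, B and C and at 1072, 168 and 451 CPM in D, E and F. In sums chosen after the values were seen, the groups overlapped without Ltf (341 to 1223 CPM against 676 to 1989 CPM) and did not overlap without Ltf, S100a8 and S100a9 (23.7 to 49.4 CPM against 68.9 to 334.5 CPM). The summed dendritic and Langerhans markers, Cd74 and H2-Ab1 among them, were 79.6 to 126 CPM against 132 to 317 CPM, with 0 of 10 called. The summed fibroblast markers overlapped, at 761 to 5090 CPM against 3953 to 8293 CPM. The part of these cell types in the levels of Il18, Casp1, Il1a and Il1rap was not tested.

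Per kilobase of exon, the order of the members differed between the groups. In Ivl:BRAFV600E tumours Il18 was at 43.3 ± 15.1 CPM per kb, followed by Il33 (25.7 ± 11.6), Casp1 (19.7 ± 5.73), Il1rn (12.3 ± 3.10), Il1a (8.26 ± 1.92) and Il1b (8.13 ± 9.61). The receptor chains came below, with Il1r2 at 4.51 ± 0.913, Il1rap at 3.45 ± 0.325, Il1r1 at 3.20 ± 0.419 and Il1rl1 at 0.369 ± 0.373 CPM per kb (all SD, n = 3). In Ivl:BRAFV600E-SOX2LSL tumours Il33 (45.1 ± 28.7) and Il1a (29.0 ± 3.87) led, followed by Il1b (17.3 ± 1.58), Il1rn (14.9 ± 3.19), Il18 (13.3 ± 5.13) and Casp1 (8.32 ± 1.04). There the receptor chains were Il1r1 at 6.14 ± 3.01, Il1rap at 5.72 ± 0.809, Il1r2 at 4.50 ± 1.05 and Il1rl1 at 1.57 ± 1.07 CPM per kb. Il1a moved from the fifth to the second place and Il18 from the first to the fifth. Neighbours in this order mostly lay within their spread, such as Il1a and Il1b in Ivl:BRAFV600E tumours and Il1b, Il1rn and Il18 in the other group.

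Ratios within a tumour set antagonist against agonist without regard to scaling. Counts of Il1rn over the sum of Il1a and Il1b were 2.67, 1.15 and 4.49 in tumours A, B and C and 0.726, 0.859 and 1.17 in tumours D, E and F. Counts in these ratios were not divided by exon length (5535 bases for Il1rn, 1974 for Il1a and 1907 for Il1b). A ratio above 1 therefore does not mean more antagonist than agonist transcripts. Tumour B, with its high Il1b, lay within the Ivl:BRAFV600E-SOX2LSL range. The mean log2 ratio differed by -1.41 (exact two-sided permutation test, p = 0.2, adjusted over 4 ratios 0.267), and 3 tumours against 3 cannot give a p below 0.1. The log2 ratio of decoy Il1r2 to Il1r1 differed by -0.85 and that of the IL-18 binding protein gene Il18bp to Il18 by 1.5, each with p = 0.2 in the same exact test. The difference for Il1r2 over Il1r1 was -0.33 without tumour D and -1.26 without F. Il1a over Il1b spread from 0.549 in B to 5.01 in A among Ivl:BRAFV600E tumours and was 1.6, 1.84 and 1.75 in D, E and F, with a difference of mean log2 ratios of 0.0028 (exact permutation p = 1.0).

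**Figure D3:**
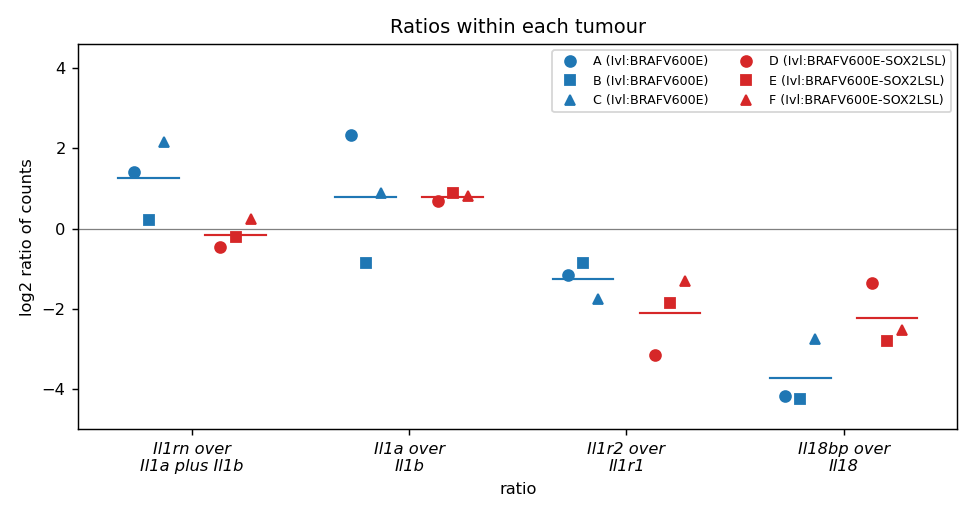
Log2 ratio of counts within each tumour for 4 pairs, with Ivl:BRAFV600E tumours in blue, Ivl:BRAFV600E-SOX2LSL tumours in red and lines at the group means. The ratio of Il1rn to Il1a plus Il1b is lower in red, with tumour B among the red tumours, and Il1a over Il1b is nearly constant in the red tumours (log2 ratio 0.68 to 0.88).

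Of 75 other genes of the pathway, grouped by role, 73 passed the filter and Il1rapl1 and Il1rapl2 did not. Of these, 7 were called, 5 higher and 2 lower, against 3.90% of all genes, and the median log2 fold change was 0.41 against 0.04 over all genes tested. Leaving out tumour D gave a median of 0.22. The number called was 0 without tumour A, B or E, 2 without F, 3 without C and 10 without D, and it was 0 with sex as a covariate.

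The other ligands and antagonists all had log2 fold changes below 0 and none passed the edgeR test (median -1.02 over 6). Il36rn, the IL-36 receptor antagonist, was measured at 366, 298 and 400 CPM in A, B and C and at 41.4, 199 and 235 CPM in D, E and F. The table lists the IL-36 genes under their older Il1f symbols. Il36g was at 205, 239 and 233 CPM against 48.5, 169 and 152 CPM, and Il36b at 81.0, 67.0 and 64.5 CPM against 8.20, 36.8 and 31.5 CPM. For Il36rn, Il36g and Il36b the groups did not overlap and tumour D was lowest (edgeR adjusted p = 0.236, 0.235 and 0.121). Il1f10 did not overlap either, with 0.716, 0.508 and 0.760 CPM against 0.0839, 0.0648 and 0.289 CPM (log2 fold change -2.18, edgeR adjusted p = 0.097). It was close to the floor, with 2 to 21 counts per tumour. In all, 4 of the 6 genes were lower without overlap, against 16.0% of all genes. Il36a overlapped, with 55.8, 54.5 and 121 CPM in A, B and C and 11.3, 69.6 and 55.5 CPM in D, E and F (adjusted p = 0.476).

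Of the genes for inflammasome assembly and cytokine release, 2 of 14 were called, both higher, against 3.90% of all genes tested. Their median log2 fold change was 0.75, against 0.04 over all genes. Mefv, which encodes the pyrin sensor, rose from 0.716, 0.647 and 1.14 CPM to 4.59, 2.92 and 2.78 CPM (log2 fold change 2.04, SE 0.36, edgeR adjusted p = 0.0337). Capn2, a subunit gene of calpain, the protease family that processes the IL-1 alpha precursor, rose from 122, 115 and 147 CPM to 246, 290 and 279 CPM (log2 fold change 1.09, SE 0.15, adjusted p = 0.02). Antisense Gm37885 shares 1717 of the 6345 exon bases of Capn2. The adaptor Pycard was at 48.2, 47.1 and 57.3 CPM against 10.2, 37.1 and 41.8 CPM and did not pass (log2 fold change -0.78, adjusted p = 0.324). The pore-former Gsdmd was at 2.22, 1.25 and 2.76 CPM against 6.57, 3.69 and 3.43 CPM and did not pass either (log2 fold change 1.14, adjusted p = 0.134).

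Of the adaptors, kinases and NF-kB genes, 5 of 27 were called, 3 higher and 2 lower, against 3.90% of all genes tested. Their median log2 fold change was 0.09, against 0.04 over all genes. The NF-kB subunit genes Nfkb1, Nfkb2 and Relb rose, with log2 fold changes of 0.76 (SE 0.12), 0.94 (SE 0.15) and 1.16 (SE 0.22) and edgeR adjusted p of 0.0281, 0.0268 and 0.0409. The other subunit genes, Rela and Rel, had log2 fold changes of -0.02 and 0.33 and did not pass (adjusted p = 0.95 and 0.297). Nfkb1 was at 87.6, 80.0 and 97.4 CPM in A, B and C and at 155, 148 and 145 CPM in D, E and F. On the opposite strand, Nfkb2 shares 531 exon bases with AC114539.1 and 299 with Psd, and Irak2 shares 196 with Gm43963. The signal-relay genes Traf6 and Irak2 fell. Traf6 was at 337, 316 and 236 CPM in A, B and C and at 61.7, 116 and 101 CPM in D, E and F (log2 fold change -1.67, SE 0.26, adjusted p = 0.0267). Irak2 was at 45.0, 54.7 and 43.3 CPM against 26.0, 24.7 and 26.5 CPM (log2 fold change -0.89, SE 0.14, adjusted p = 0.0266).

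None of the 22 IL-1-responsive genes passed the edgeR test, with 18 above 0, against 12904 of the 24433 genes tested, and a median log2 fold change of 1.06. Csf2 reached the filter only in Ivl:BRAFV600E-SOX2LSL tumours, and without it 17 of 21 were above 0. The groups did not overlap for 6 of them, all higher, against 18.2% of all genes higher without overlap. Steap4 was measured at 8.59, 4.43 and 20.1 CPM in A, B and C and at 49.6, 48.6 and 42.9 CPM in D, E and F (log2 fold change 2.1, adjusted p = 0.0604). The acute-phase gene Saa3 was at 0.102, 0.185 and 7.65 CPM against 48.1, 38.4 and 33.4 CPM (log2 fold change 3.94, adjusted p = 0.12). Tumour B, high in Il1b and Cxcl2, was low in Steap4 and Saa3.

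**Figure D4:**
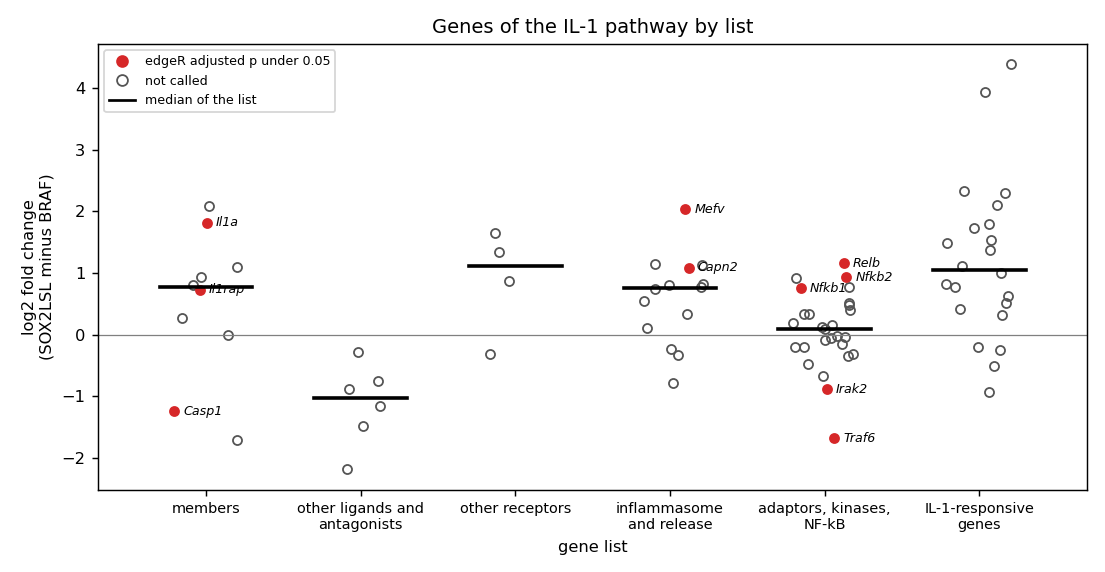
Log2 fold change of each tested gene (Ivl:BRAFV600E-SOX2LSL minus Ivl:BRAFV600E), 1 point per gene, by list, with genes called by edgeR in red and lines at the list medians. The other ligands and antagonists all lie below 0 (median -1.02), whereas the IL-1-responsive genes lie mostly above it (median 1.06) with none called.

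Il1r2, Il1r1, Il1rl2, Il1rl1, Il18r1 and Il18rap lie side by side on chromosome 1, from chr1:40074079-40125231 for Il1r2 to chr1:40515362-40551705 for Il18rap. Their log2 fold changes in this order were -0.00, 0.94, -0.31, 2.09, 0.87 and 1.65, and none passed the edgeR test (Il18rap adjusted p = 0.08). Il1rl2, the IL-36 receptor between Il1r1 and Il1rl1, was at 106, 94.4 and 114 CPM in A, B and C and at 55.0, 98.0 and 101 CPM in D, E and F. Beyond the cluster, Map4k4 and Mfsd9 had log2 fold changes of -0.02 and 0.02, and Slc9a2 rose from a mean of 0.342 to 73.1 CPM (log2 fold change 7.71, SE 0.71, adjusted p = 0.0075).

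**Figure D5:**
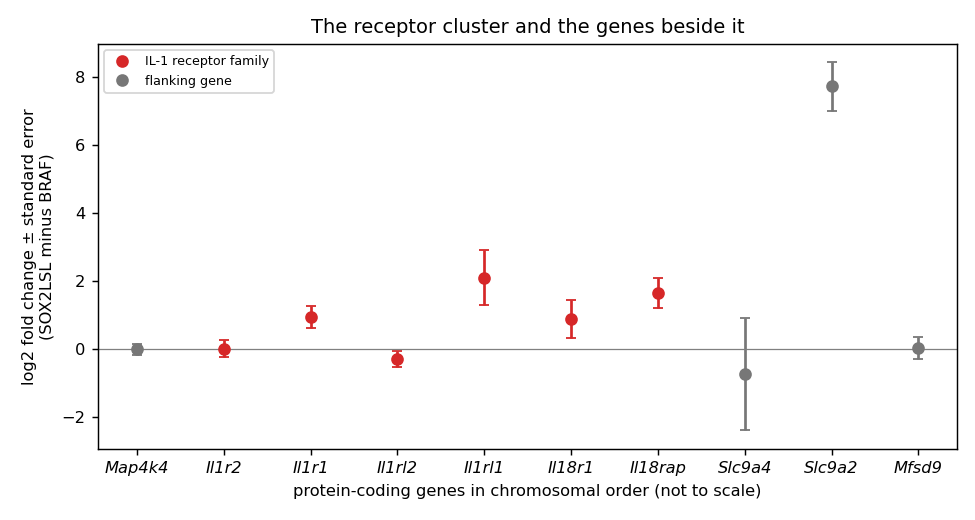
Log2 fold change (Ivl:BRAFV600E-SOX2LSL minus Ivl:BRAFV600E) with its standard error for the genes of the receptor cluster in chromosomal order, receptor genes in red and flanking genes in grey. Il1rl1 (2.09) and Il18rap (1.65) are the highest receptor genes, Il1r2 and Il1rl2 lie near 0, and Slc9a2 stands far above (7.71).

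The promoters of the 3 called members and of Il18 are shown because 2 of these genes were higher and 2 lower. They are given as RefSeq places them on GRCm38.p6, from 250 bases before to 10 after the start site, in the direction of transcription, with matches to the motifs searched in capitals.
Il1a: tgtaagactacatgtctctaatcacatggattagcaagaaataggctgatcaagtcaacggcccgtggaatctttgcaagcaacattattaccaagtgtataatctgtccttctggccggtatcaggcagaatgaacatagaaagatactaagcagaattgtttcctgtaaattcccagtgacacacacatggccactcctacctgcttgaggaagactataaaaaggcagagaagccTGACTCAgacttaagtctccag
Il1rap: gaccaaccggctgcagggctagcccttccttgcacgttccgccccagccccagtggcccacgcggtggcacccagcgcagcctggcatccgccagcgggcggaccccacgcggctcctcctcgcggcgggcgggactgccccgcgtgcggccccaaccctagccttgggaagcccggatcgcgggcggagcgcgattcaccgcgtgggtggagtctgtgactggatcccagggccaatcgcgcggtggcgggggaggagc
Casp1: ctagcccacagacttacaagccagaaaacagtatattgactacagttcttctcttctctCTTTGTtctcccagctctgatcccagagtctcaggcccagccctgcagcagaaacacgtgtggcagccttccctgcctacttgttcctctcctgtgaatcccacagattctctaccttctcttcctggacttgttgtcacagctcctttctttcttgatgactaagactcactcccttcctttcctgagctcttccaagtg
Il18: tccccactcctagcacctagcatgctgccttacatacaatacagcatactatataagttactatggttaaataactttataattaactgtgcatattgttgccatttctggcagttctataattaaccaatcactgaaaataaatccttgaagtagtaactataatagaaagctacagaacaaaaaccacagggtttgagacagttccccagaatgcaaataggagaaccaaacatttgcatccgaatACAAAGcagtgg
They lie at chr2:129309963-129310222 (Il1a, minus strand), chr16:26581455-26581714 (Il1rap), chr9:5298267-5298526 (Casp1) and chr9:50554450-50554709 (Il18). The motifs searched, on both strands, were the SOX cores ACAAAG and ACAATG and the AP-1 site TGANTCA, in the window of 250 bases before to 50 after the start. Il1a held an AP-1 match at position -12 from the start site, Casp1 held ACAAAG on the minus strand at -191, Il18 held ACAAAG at -2, and Il1rap held no match. Of the other members, Il1rn held an AP-1 match at -141 and ACAAAG at -230 of 1 start site and ACAATG before its other start sites, Il1rl1 held ACAATG before both its start sites, and Il1b, Il33, Il1r1 and Il1r2 held none. Of 32851 RefSeq promoters of the same length, 18.7% held ACAAAG, 12.6% ACAATG and 7.81% the AP-1 site. A match is a description of letters and not of binding.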

How the data were processed

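Tumour RNA was sequenced after depletion of ribosomal RNA. According to the methods and the submitters' processing notes, the authors checked reads with FastQC 0.11.8, trimmed them with Trim Galore, aligned them to GRCm38 with HISAT2 2.1.0 and counted them with featureCounts (Subread 1.6.3), and the deposited values are raw read counts per gene. Columns were assigned to genotypes by the mouse names in the study's source data, 3 per group. The labels describe 4 Ivl:BRAFV600E tumours, and 1 column was not used because its mouse was not listed. Its name begins as the Ivl:BRAFV600E-SOX2LSL columns do, although the labels leave room only for another Ivl:BRAFV600E tumour, so its group is uncertain.

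The 24433 genes reaching 5 reads in any tumour were tested with edgeR 4.0.16 (R 4.3.3), TMM scaling, genotype only, and Benjamini-Hochberg adjustment at 0.05. CPM is counts per 1 M reads after TMM, and correlations used log2 CPM with a prior count of 2. Ratios used a prior of 0.5 counts. Coordinates and exon lengths are from GENCODE M21, and promoters from RefSeq. Alternatives were DESeq2 1.42.0, limma 3.58.1 (voom), other scalings and filters, sex as a covariate, and each tumour left out. The test was checked on simulated data. All members were named, with pathway genes that were called or describe a list, some marker genes for defining levels, the 3 listed genes closest to a member by correlation, and genes flanking a member. The members and lists were chosen with earlier results of these data known.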

Additional observations from a re-analysis of the deposited data

How the results depend on the processing

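Each group held 3 tumours, and depth was not varied. No paired analysis was possible because the columns carry no replicate number. Genes called numbered 954 of all genes, 3653 with DESeq2, 1759 with no filter on low counts, 228 with sex as a covariate and 22 to 1575 with each tumour left out. Members called numbered 3, and 5 with DESeq2 (adding Il18 and Il1rl1), 1 with sex as a covariate, and 0 (without tumour A) to 4 (without tumour D) with 1 tumour left out. Other pathway genes called numbered 7, and 15 with DESeq2, 0 with sex as a covariate and 0 to 10 with 1 tumour left out, when their median log2 fold change ranged from 0.22 to 0.49. The log2 fold change of Il1r2 turned to 0.0012 with no filter and 0.17 with sex as a covariate, and ranged from -0.20 to 0.13 with 1 tumour left out. The difference in the log2 ratio of Il1a to Il1b ranged from -0.82 (without tumour B) to 0.77, and turned below 0 without tumour B, E or F. In sums chosen after the values were seen, the log2 difference of the neutrophil markers (1.75) was 1.12 without Ltf and 4.01 without S100a8 and S100a9. That of the T, NK and innate lymphoid markers (-1.47) turned to 0.99 without Rora, whose level carries that sum. Most of the sum without Rora came from Gata3. The other causes were not tested. The other members kept their direction in all 13 alternatives.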
